A study of Mus musculus with 70 samples.

Results

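The genes described here are 35 named members of the ER stress and ATF4 response, taken by symbol from the 35197 genes of a table of estimated RNA counts. They form an ATF4 arm of 22 genes and an ER chaperone arm of 13 genes (protein folding, degradation and the regulator Xbp1). The ATF4 arm holds regulators, genes of amino acid and one-carbon synthesis (with Pck2 counted there), amino acid transport and stress effectors. The counts came from 8 mouse cancer cell lines grown in serum-containing medium, each unstimulated (NS) or given interferon beta (IFNb, 1000 activity units per mL) or interferon gamma (IFNg, 100 ng per mL) for 48 hours. By label, the melanoma lines are B16.1 and YUMMER1.7, the colorectal lines MC38.7 and CT26.2, the pancreatic lines Panc02.3 and KPC.2, the lung line LLC and the kidney line Renca. CT26.2 and Renca are labelled BALB/c and the other lines C57BL/6. The 70 libraries formed 24 groups, 22 of 3 libraries and 2 of 2 libraries (LLC with IFNg and unstimulated Renca). Each line is a single cultured line, and the labels do not say that replicates were separate cultures, so the spread on which p-values rest is that between libraries and may be technical.

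ATF4 is the transcription factor at the end of the integrated stress response. Kinases that sense ER stress (PERK), amino acid shortage (GCN2), double-stranded RNA (PKR) or heme lack (HRI) phosphorylate eIF2alpha, which lowers general protein synthesis while translation of the Atf4 message rises. ATF4 then turns on genes for amino acid uptake and synthesis, together with stress regulators such as CHOP (encoded by Ddit3). The unfolded protein response has further branches, ATF6 and IRE1 with XBP1, which induce ER chaperones and degradation factors. Gene counts measure message abundance, so neither Atf4 translation nor Xbp1 splicing was measured.

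The shallowest library, KPC.2 with IFNb replicate 3, held 668355 counts and the deepest 28550816, with a median of 8644887. All 35 members were among the 16147 genes that passed the filter on low counts. The interferon response genes Irf1, Gbp2 and Isg15 rose with both cytokines on the mean of the 8 lines. In YUMMER1.7 none of the 3 rose in the libraries labelled IFNb. There Isg15 (log2 fold change -0.20 ± 0.09 SE, adjusted p = 0.42, edgeR quasi-likelihood) and Irf1 (-0.06) did not pass the test and Gbp2 fell (-0.51 ± 0.08, adjusted p = 1e-05), while all 3 rose in the YUMMER1.7 libraries with IFNg. Unstimulated YUMMER1.7 already stood at 533 to 627 CPM (counts scaled to the library total) of Isg15 and 154 to 183 CPM of Gbp2, near LLC with IFNb (574 to 607 and 175 to 186 CPM) and above the other unstimulated lines, whose means reached at most 303 CPM of Isg15 and 29.3 CPM of Gbp2. The libraries labelled IFNb thus showed no rise over NS libraries in which these genes were high, and the IFNb means below are also given without YUMMER1.7, an alternative chosen after seeing the data. Summed melanocyte markers reached 11728 to 12270 CPM in unstimulated B16.1 and 17.4 to 23.0 CPM in YUMMER1.7, close to the 13 to 18 CPM of colorectal CT26.2. Summed epithelial markers were 1.92 to 2.27 CPM in MC38.7 and 29.3 to 36.7 CPM in CT26.2, against 5908 to 6199 CPM in KPC.2. The labelled tissue of YUMMER1.7 and MC38.7 was thus not visible in these markers. It was little visible in unstimulated CT26.2, where 3 of 5 epithelial markers had 0 counts. Marker sums also moved with treatment. In B16.1 the melanocyte sum was 6996 to 7049 CPM with IFNb and 4899 to 5092 CPM with IFNg. In LLC the epithelial sum was 124 to 128 CPM with IFNb against 289 to 314 CPM unstimulated. In KPC.2 it was 8715 to 9156 CPM with IFNg, where Krt8 and Krt18 rose and Epcam and Krt19 fell (log2 fold changes 0.82, 1.45, -1.74 and -0.34). The mesenchymal sum of 3 markers went from 12199 to 14816 CPM in unstimulated Panc02.3 to 7316 to 8087 CPM with IFNg, where all 3 fell, Col1a1 by 5.12 ± 0.13 on the log2 scale (adjusted p = 6.4e-39). In B16.1 that sum went from 1259 to 1335 CPM to 3074 to 3174 CPM with IFNg, where all 3 rose. Cd68, the 1 leukocyte marker of 5 past the filter, had a log2 fold change of 3.40 ± 0.25 in B16.1 with IFNg (adjusted p = 2.9e-18). With either cytokine the mitochondrial share of counts was higher than in any NS library in B16.1 (2.82% to 2.97% with IFNg against 1.75% to 2.08%) and lower than in any in KPC.2 (2.31% to 2.88% with IFNg against 3.15% to 3.79%), LLC (1.42% to 1.45% with IFNb against 1.95% to 2.13%), Renca (2.35% to 2.72% with IFNg against 3.46% to 4.89%) and YUMMER1.7 (2.10% to 2.28% with IFNg against 2.47% to 2.61%). In CT26.2, MC38.7 and Panc02.3 the groups overlapped. The part of these shifts in the results below was not tested.

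The arms are defined by function, and their promoters also differ in sequence. Promoters of 32 of the 35 members were found in the RefSeq promoter table (GRCm38.p6), the exceptions being Hyou1, Manf and Slc7a5. The 250 bases before each start were searched on both strands. The C/EBP-ATF response element (CARE, TGATGNAA), bound by ATF4 with C/EBP partners, was present in 6 of 21 ATF4-arm promoters (Asns, Atf3, Chac1, Nupr1, Pck2 and Slc7a11) and in 1 of 11 ER-arm promoters (Herpud1), against 3.45% of all 32851 promoters. The ER stress response element (ERSE, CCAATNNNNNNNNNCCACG), bound by ATF6 with NF-Y, was in 4 of 11 ER-arm promoters (Creld2, Dnajc3, Hsp90b1 and Hspa5), in 0 of 21 ATF4-arm promoters, and in 0.113% of all. The unfolded protein response element (UPRE, TGACGTGG) was in no member's window and in 0.563% of all promoters. The gamma-activated site (GAS, TTCNNNGAA), an element of IFNg signalling, was in 4 ATF4-arm promoters (Aldh18a1, Nupr1, Shmt2 and Slc7a11), in 0 of 11 ER-arm promoters, and in 7.02% of all. The interferon-stimulated response element (ISRE, searched as GAAA repeated after 2 bases) was in the promoter of Ppp1r15a, in no other member's, and in 2.98% of all. None of these matches overlaps another in the members. A match is a description of the letters and not of binding.

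The last 130 bases before the RefSeq start are given for 6 members described in full below, 3 with a CARE and 3 with an ERSE, to show where the elements lie. They are written in the direction of transcription, with CARE or ERSE letters in capitals. A CARE on the opposite strand reads as its reverse complement. Slc7a11 carries a pair of CAREs in opposite orientation, at -66 to -59 and -47 to -40 from the start, while Atf3 and Nupr1 each carry a single one at -110 to -103. The ERSE lies at -65 to -47 in Hspa5, at -105 to -87 in Dnajc3 and, on the opposite strand, at -126 to -108 in Creld2.
Atf3 (chr1:191183334-191183463, minus strand): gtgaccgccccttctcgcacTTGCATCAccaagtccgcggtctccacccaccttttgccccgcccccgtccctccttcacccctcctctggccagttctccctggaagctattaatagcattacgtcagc
Nupr1 (chr7:126625471-126625600, minus strand): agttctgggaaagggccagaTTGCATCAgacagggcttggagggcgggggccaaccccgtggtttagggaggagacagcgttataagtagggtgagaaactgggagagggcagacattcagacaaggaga
Slc7a11 (chr3:50443614-50443743, minus strand): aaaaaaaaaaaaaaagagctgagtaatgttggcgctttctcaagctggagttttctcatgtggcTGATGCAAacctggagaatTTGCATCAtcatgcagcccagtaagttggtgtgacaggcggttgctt
Hspa5 (chr2:34771960-34772089, plus strand): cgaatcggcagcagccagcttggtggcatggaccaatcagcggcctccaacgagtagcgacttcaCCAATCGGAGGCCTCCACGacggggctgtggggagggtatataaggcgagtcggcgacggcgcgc
Creld2 (chr15:88819516-88819645, plus strand): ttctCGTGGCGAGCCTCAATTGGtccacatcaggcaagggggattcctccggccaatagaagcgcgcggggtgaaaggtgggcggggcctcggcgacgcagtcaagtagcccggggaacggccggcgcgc
Dnajc3 (chr14:118937802-118937931, plus strand): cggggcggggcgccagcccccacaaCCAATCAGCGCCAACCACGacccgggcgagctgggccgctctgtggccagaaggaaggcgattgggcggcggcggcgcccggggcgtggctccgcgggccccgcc

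Before any cytokine the lines already stood far apart, and more so in the ATF4 arm. KPC.2 had the lowest unstimulated level of 14 of the 22 ATF4-arm members and was among the lowest 3 lines for 17. B16.1 and LLC were among the lowest 3 for 18 and 15 members. Renca, CT26.2 and MC38.7 were among the highest 3 for 17, 15 and 15 members and held the highest level of 8, 6 and 6. In the ER chaperone arm KPC.2 was again low (among the lowest 3 for 10 of 13 genes, lowest for 6), but B16.1 was among the highest 3 for 9 genes. Every member differed between unstimulated lines in edgeR's F test, as did 96.5% of the genes tested, so that count says little about the members. The ranks above and the ratios below were not computed over all genes tested. They describe these members and do not show that the members differ from other genes.

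Ddit3, which encodes the stress transcription factor CHOP, read 9.46, 11.1 and 8.91 CPM in unstimulated KPC.2 and 183, 183 and 173 CPM in MC38.7, an 18.3-fold ratio of the means. Trib3, a pseudokinase induced by CHOP and ATF4, read 15.4, 15.6 and 14.8 CPM in KPC.2 and 457, 475 and 431 CPM in MC38.7, a 29.8-fold ratio. These lowest and highest groups did not overlap. Asns, asparagine synthetase, ran from 63.7 ± 3.5 CPM (SD, n = 3) in KPC.2 to 435 ± 26 CPM (n = 3) in CT26.2, with Renca (424 ± 43 CPM, n = 2) and MC38.7 (386 ± 1.6 CPM, n = 3) next. CT26.2 and Renca did not differ beyond their spread. Among members above 3 counts in every unstimulated line, the largest ratio, 41.2-fold, was that of Atf5, another stress-induced transcription factor, from 22.5 ± 6.0 CPM in KPC.2 to 924 ± 43 CPM in CT26.2. In the ER arm the ratio of the highest to the lowest line lay between 2.21-fold (Manf, a secreted ER stress protein) and 9.50-fold (Sdf2l1, a partner of the chaperone BiP). Hspa5, which encodes BiP, ran from 810 ± 34 CPM in KPC.2 to 2591 ± 183 CPM in CT26.2, a 3.20-fold ratio.

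Some members were missing from a line. Atf3, a stress-induced transcription factor, had 2 counts over the unstimulated CT26.2 libraries, and was at 134 ± 8.9 CPM (n = 2) in Renca. Stc2, a secreted glycoprotein induced by ER stress, had 0 counts in unstimulated B16.1 and Renca and 51.6 ± 2.2 CPM in MC38.7. Counts of 3 or fewer over a group are taken as the floor here. Atf3 and Stc2 are therefore described by line.

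**Figure D1:**
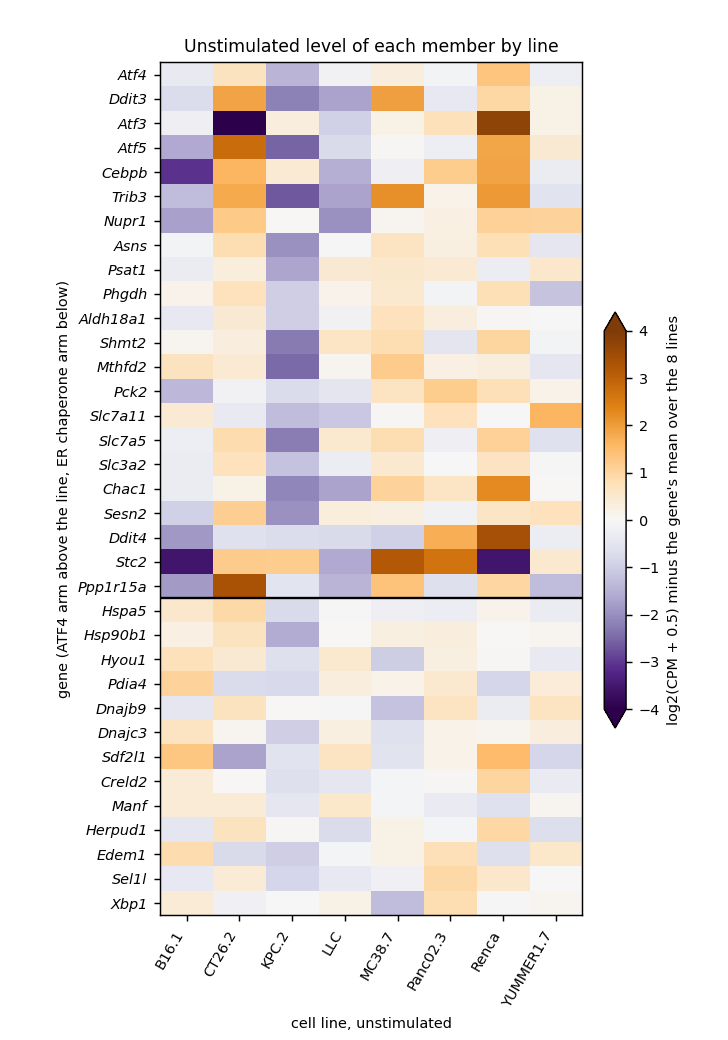
Unstimulated level of the 35 members in the 8 lines, as log2(CPM + 0.5) minus the gene's mean over the lines, with colours ending at 4 on either side. The ATF4 arm is above the line and the ER chaperone arm below, and KPC.2, with the lowest level of 14 ATF4-arm members, stands out as the low column.

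IFNg raised most of the ATF4 arm on the equally weighted mean of the 8 lines. Of its 22 members, 17 rose and 1 fell, where 18.3% of all genes tested rose and 23.7% fell. These are bulk cultures, in which fewer cells of a kind and less RNA per cell cannot be told apart. The median log2 fold change was 0.39 over the arm and -0.04 over all genes tested. Without Atf3 and Stc2, which are near 0 counts in a group, the arm median was 0.35. By role, 6 of 7 regulators, 6 of 7 synthesis genes, 2 of 3 transport genes and 3 of 5 effectors rose. The regulator Atf3 and the effector Stc2 have no usable SE on this mean, so they could not be called. The members with the largest called change were Ddit3 (log2 fold change 1.17 ± 0.06 SE, adjusted p = 2.7e-25), Trib3 (0.84 ± 0.07, adjusted p = 1.3e-14), Cebpb (0.77 ± 0.04, adjusted p = 4.5e-25), a C/EBP factor that dimerises with ATF4, and Nupr1 (0.67 ± 0.05, adjusted p = 3.8e-16), a small stress-induced chromatin protein. Adjusted p-values here and below come from the edgeR quasi-likelihood test, with Benjamini-Hochberg adjustment over all genes tested. The 1 member that fell was Ddit4, which encodes REDD1, an inhibitor of mTORC1 (-0.21 ± 0.04, adjusted p = 1.2e-05).

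The ER chaperone arm moved less on the same mean. Of 13 members 6 rose and 3 fell, where 18.3% of all genes tested rose and 23.7% fell, with a median of 0.05. The share that fell was near that of all genes. Hspa5 rose by a log2 fold change of 0.35 ± 0.02 (adjusted p = 2.3e-24), Creld2, a disulfide isomerase-like ER protein, by 0.27 ± 0.03 (adjusted p = 4e-10), Sdf2l1 by 0.20 ± 0.04 (adjusted p = 1.9e-05) and Manf by 0.15 ± 0.02 (adjusted p = 4.8e-07). Sel1l, an adaptor of the ER degradation ligase, and Dnajb9, a BiP co-chaperone, rose by 0.08 and 0.13. Edem1, a lectin of ER-associated degradation, fell by 0.13, Dnajc3 (the PKR and PERK inhibitor p58IPK) by 0.09 and Xbp1 by 0.07. Without YUMMER1.7, 4 rose and 3 fell, and Sdf2l1 (0.08, adjusted p = 0.11) and Sel1l (0.07, adjusted p = 0.085) were no longer called. The responses of single lines, given below, were larger for most of these genes.

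**Figure D2:**
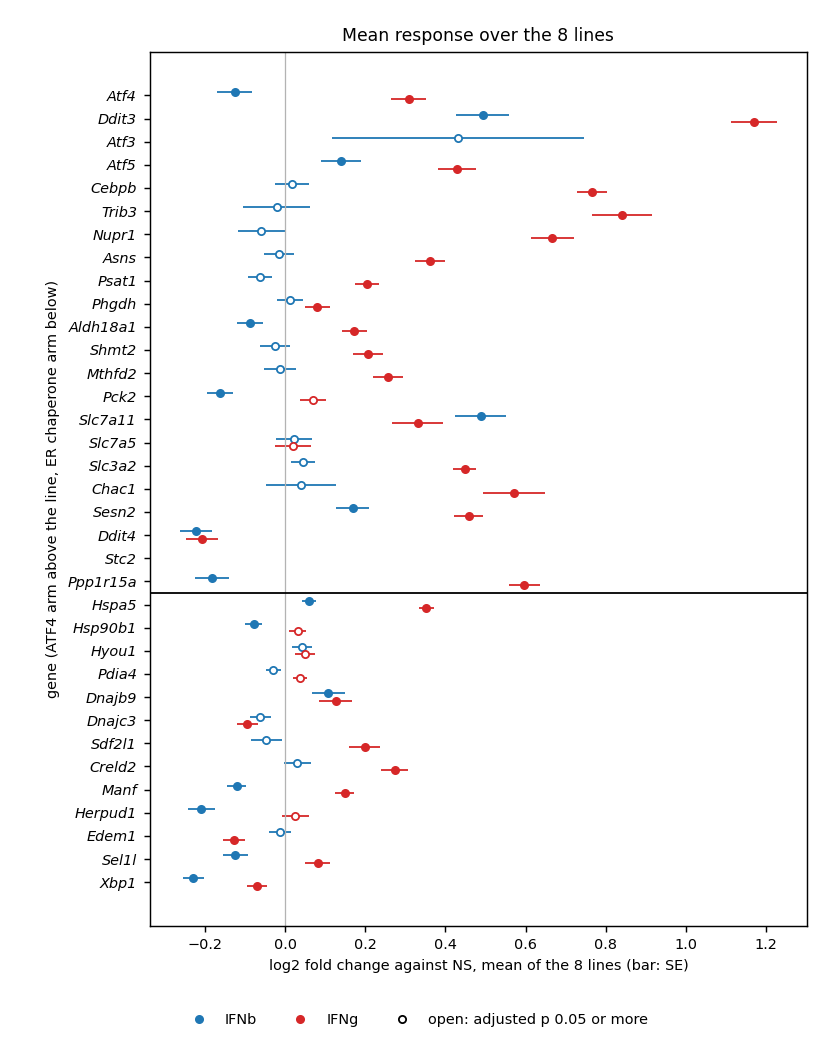
Log2 fold change against NS on the mean of the 8 lines, with SE bars, for IFNb and IFNg. Filled points passed an adjusted p of 0.05. Stc2, and Atf3 with IFNg, have no usable SE because a group is near 0 counts and are not drawn. IFNg points of the ATF4 arm lie mostly to the right of 0, up to 1.17 for Ddit3, while ER-arm points stay between -0.23 and 0.35.

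The lines contributed unequally to that mean. With IFNg most of the arm rose in Panc02.3, KPC.2, LLC and B16.1, few members were called in CT26.2, MC38.7 and Renca, and more fell than rose in YUMMER1.7. In Panc02.3, 19 members rose and 2 fell (all genes tested: 23.2% rose and 31.6% fell), with an arm median of 1.20. In KPC.2, 19 rose and 1 fell (13.8% and 15.8% of all genes), with a median of 0.89. In LLC, 15 rose and 0 fell (6.65% and 4.60%), with a median of 0.35. In B16.1, 13 rose and 4 fell (27.6% and 26.5%), with a median of 0.68. In CT26.2, 1 rose and 1 fell (4.97% and 3.86%), in MC38.7 0 rose and 0 fell (3.89% and 0.886%), and in Renca 0 rose and 3 fell (6.04% and 5.16%). The share called in CT26.2 and Renca was near that of all genes, and in MC38.7 few of all genes were called. These counts therefore say little about the arm. Irf1, an immediate target of IFNg signalling, rose in CT26.2, MC38.7 and Renca (log2 fold changes 4.03, 2.88 and 2.93). YUMMER1.7 went the other way, with 3 members risen and 8 fallen (9.79% and 11.0%) and a median of -0.20. The responses differed between lines for 22 of 22 members in edgeR's F test, against 69.2% of all genes. The level without cytokine and the change with it share the NS libraries, so no correlation between them is given.

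The LLC count depends on single libraries, since its IFNg group holds 2. Without LLC IFNg replicate 3 it was 9 of 22 and without replicate 1 it was 10. The counts in Panc02.3, KPC.2 and B16.1 stayed within 20 to 22, at 20 and at 17 when any 1 library was left out. In YUMMER1.7 the 11 called members became 7 without NS replicate 1. The 2 called in CT26.2 became 0 without any 1 of 5 of its 6 libraries, and the 3 in Renca became 5 without IFNg replicate 2.

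**Figure D3:**
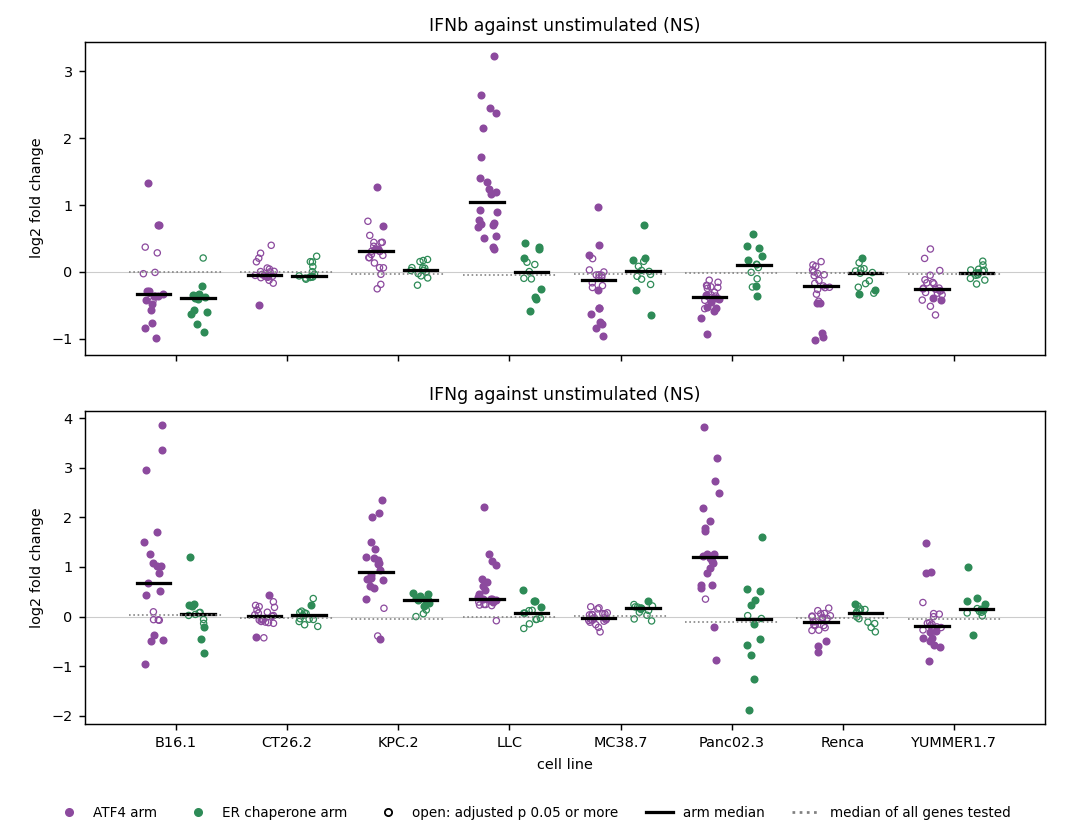
Log2 fold change of every member with more than 3 counts in both groups, by line and arm, for IFNb (top) and IFNg (bottom). Black bars are arm medians, dotted lines the median of all genes tested, and open points did not pass an adjusted p of 0.05. With IFNg the ATF4-arm median reaches 1.20 in Panc02.3, and with IFNb it reaches 1.04 in LLC and is lowest in Panc02.3, at -0.37.

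Among the regulators Ddit3 rose with IFNg in the most lines, 6 of 8. It read 20.7, 30.4 and 32.9 CPM in unstimulated B16.1 and 258, 294 and 312 CPM with IFNg. In Panc02.3 it read 45.0, 24.8 and 35.0 CPM unstimulated and 374, 293 and 298 CPM with IFNg. The groups did not overlap in either line, and Ddit3 rose by log2 fold changes of 3.35 ± 0.15 (adjusted p = 2.6e-27) and 3.19 ± 0.15 (adjusted p = 2.8e-26). The other rises were 1.20 in KPC.2, 0.89 in YUMMER1.7, 0.61 in LLC and 0.43 in CT26.2 (adjusted p = 0.04). In MC38.7 it read 183, 183 and 173 CPM without and 171, 170 and 182 CPM with IFNg, and these groups overlapped.

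Atf3 rose with IFNg in 5 lines. In B16.1 it read 6.85, 9.61 and 8.43 CPM unstimulated and 117, 117 and 129 CPM with IFNg, its largest rise (log2 fold change 3.86 ± 0.17, adjusted p = 3e-27). In LLC it went from 4.32, 5.69 and 4.28 CPM to 23.4 and 21.3 CPM (2.21 ± 0.19, adjusted p = 5.5e-14). In YUMMER1.7 it went from 13.9, 10.5 and 9.10 CPM to 26.7, 33.0 and 34.1 CPM (1.49 ± 0.18, adjusted p = 3e-09), the largest ATF4-arm change of a line in which the arm median fell. None of these groups overlapped with its control. Renca, the line with the highest unstimulated level, fell (-0.58 ± 0.13, adjusted p = 0.0014).

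Trib3 read 15.4, 15.6 and 14.8 CPM in unstimulated KPC.2 and 81.1, 81.4 and 72.5 CPM with IFNg, the largest called change of the arm there (2.35 ± 0.27, adjusted p = 2e-10). It rose in B16.1, KPC.2, LLC and Panc02.3 and did not pass in the other 4 lines, where its log2 fold change lay between -0.17 and 0.07. Nupr1 read 10.5, 13.9 and 13.5 CPM in unstimulated B16.1 and 93.8, 100 and 103 CPM with IFNg (2.96 ± 0.17, adjusted p = 4.5e-23). It rose in Panc02.3 (2.50) and KPC.2 (0.75) too, but in YUMMER1.7 it went from 101, 87.7 and 80.5 CPM to 48.9, 46.8 and 48.8 CPM and fell by 0.90 ± 0.14 (adjusted p = 9e-07). Its groups did not overlap in either direction. Cebpb rose in 5 lines and fell in none, from 0.75 in LLC to 1.71 in B16.1. Part of its exons, 312 bases, overlap Tmem189 on the opposite strand, and whether counting used strand is not given in the sources used here. Atf4 itself rose only in KPC.2 (0.94) and Panc02.3 (1.22) among the 8 lines. In B16.1, where 6 regulators rose, Atf4 read 320, 386 and 377 CPM unstimulated and 366, 391 and 401 CPM with IFNg (log2 fold change 0.10, not past the test).

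The synthesis and transport genes rose in most cases in KPC.2, Panc02.3 and LLC. All 7 synthesis genes and all 3 transport genes rose in KPC.2, 6 of 7 and 2 of 3 in Panc02.3, and 5 of 7 and 2 of 3 in LLC, where the rises were smaller (at most 0.46 for a synthesis gene). Asns went from 61.2, 67.6 and 62.2 CPM to 150, 128 and 153 CPM in KPC.2, with no overlap (log2 fold change 1.17). Mthfd2, the mitochondrial folate dehydrogenase, rose by 1.50 in KPC.2, and Slc7a11, the cystine importer, went there from 11.1, 16.6 and 11.7 CPM to 58.3, 51.5 and 58.4 CPM (2.08 ± 0.20, adjusted p = 4.1e-13). Slc3a2, the heavy chain shared by the cystine and large neutral amino acid transporters, rose in B16.1, KPC.2, LLC and Panc02.3, by up to 1.73 in the last.

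B16.1 split the arm. Its regulators rose in 6 of 7 cases and its effectors in 4 of 5, while of the 7 synthesis genes 2 rose (Asns 0.43 and Pck2 0.51) and 3 fell (Shmt2, the mitochondrial serine hydroxymethyltransferase, by 0.50, Phgdh, the first enzyme of serine synthesis, by 0.48, and Aldh18a1, of proline synthesis, by 0.37). Of all genes tested, 27.6% rose and 26.5% fell in B16.1 with IFNg. The share of synthesis genes that rose was near that of all genes. Slc7a5, the large neutral amino acid transporter, fell in B16.1 from 235, 274 and 274 CPM to 134, 136 and 133 CPM, a log2 fold change of -0.96. In YUMMER1.7, 3 of 7 regulators rose (Atf3, Ddit3 and Cebpb) and 1 fell (Nupr1), and 4 of 7 synthesis genes, 1 transport gene and 2 effectors fell.

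Among the effectors Ppp1r15a stood out in Panc02.3. It encodes GADD34, the phosphatase subunit that dephosphorylates eIF2alpha. It read 63.4, 41.7 and 51.3 CPM unstimulated and 820, 739 and 662 CPM with IFNg, far apart (3.82 ± 0.11, adjusted p = 1.8e-37). In Renca it fell from 178 and 137 CPM to 84.2, 117 and 85.9 CPM (-0.71 ± 0.10, adjusted p = 5.1e-07). Stc2 read 47.2, 26.9 and 33.1 CPM in unstimulated Panc02.3 and 163, 171 and 160 CPM with IFNg (2.19 ± 0.13, adjusted p = 5.1e-21). Chac1, which degrades glutathione, rose in the same 4 lines as Trib3, from 1.02 in B16.1 to 2.0 in KPC.2, and fell in YUMMER1.7 by 0.61. Ddit4 ran against the arm, fallen in 5 lines and risen in B16.1 alone among the 8 (29.0, 35.6 and 37.2 CPM to 67.5, 71.6 and 68.3 CPM, log2 fold change 1.02 ± 0.12, adjusted p = 7.6e-11). Its largest fall was in Panc02.3, from 408, 434 and 419 CPM to 259, 183 and 240 CPM (-0.88 ± 0.10, adjusted p = 2.9e-11).

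**Figure D4:**
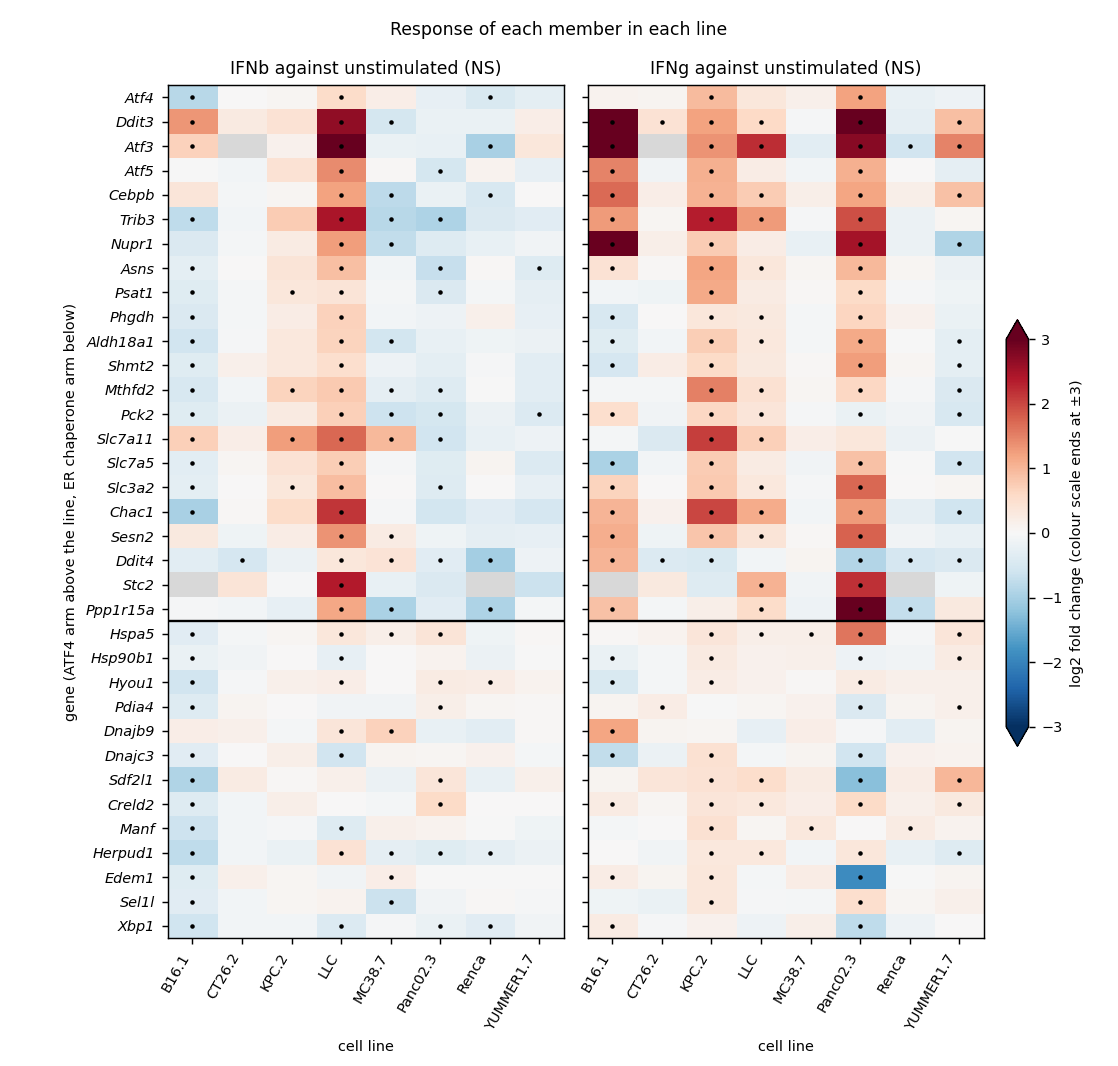
Log2 fold change of each member in each line for IFNb (left) and IFNg (right), with colours ending at 3 on either side and dots for an adjusted p under 0.05. Grey cells had 3 or fewer counts in a group. The IFNb panel shows LLC as the line in which all 22 ATF4-arm genes rose. In the IFNg panel B16.1, KPC.2, LLC and Panc02.3 are mostly raised above the line, and Panc02.3 mixes rises and falls below it.

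In the ER chaperone arm IFNg raised 10 and lowered 0 of 13 members in KPC.2 (median 0.33), where 13.8% of all genes rose and 15.8% fell. It raised 5 and lowered 1 in YUMMER1.7 (9.79% and 11.0% of all genes) and raised 5 and lowered 6 in Panc02.3 (23.2% and 31.6%). In B16.1 it raised 4 and lowered 3 (27.6% and 26.5%), a share called near that of all genes. In LLC 4 rose (6.65% of all genes), in MC38.7 2 (3.89%), in CT26.2 1 (4.97%) and in Renca 1 (6.04%), with none fallen in these 4 lines, and a single call in 13 in CT26.2 and Renca is near the share of all genes. The counts in LLC, MC38.7, CT26.2 and Renca moved by more than 1.5 times when single libraries were left out, to between 1 and 3 in LLC, to 1 in MC38.7, and to up to 2 in CT26.2 and between 0 and 2 in Renca. The F test between lines passed for 13 of 13 members, against the 69.2% of all genes given above.

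Panc02.3 pulled the ER arm apart. Hspa5 read 1145, 1098 and 1136 CPM unstimulated and 3634, 3185 and 3492 CPM with IFNg, with no overlap, its largest rise of any line (1.61 ± 0.05, adjusted p = 1.9e-34). Edem1 went the opposite way, from 231, 228 and 225 CPM to 59.3, 63.1 and 65.1 CPM (-1.88 ± 0.08, adjusted p = 1.1e-27). Sdf2l1 fell from 44.8, 42.8 and 43.6 CPM to 19.1, 15.3 and 20.2 CPM (-1.26) and Xbp1 from 152, 160 and 149 CPM to 89.5, 79.9 and 101 CPM (-0.77 ± 0.07, adjusted p = 4.2e-14). Creld2 (0.56), Sel1l (0.51), Herpud1 (0.33) and Hyou1 (0.24) rose there with Hspa5, and Dnajc3 (-0.57), Pdia4 (-0.44) and Hsp90b1 (-0.16) fell with Edem1. The Hsp90b1 change was 0.01 without replicate 2 of every group (adjusted p = 1).

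For each other line, the ER-arm member with the largest called change is given here. Dnajb9 read 16.8, 16.14 and 17.9 CPM in unstimulated B16.1 and 44.9, 40.4 and 31.4 CPM with IFNg (1.19 ± 0.11, adjusted p = 3.6e-14), and passed the test in no other line. Sdf2l1 rose in YUMMER1.7 from 22.8, 17.7 and 23.6 CPM to 39.7, 44.0 and 46.0 CPM (1.0 ± 0.10, adjusted p = 4e-12), and in LLC by 0.53 ± 0.08 (adjusted p = 2e-06). The groups did not overlap in these cases. Smaller rises led the arm in KPC.2 (Dnajc3, 0.47 ± 0.08, adjusted p = 7.1e-06), MC38.7 (Manf, 0.31 ± 0.06, adjusted p = 0.00024), Renca (Manf, 0.25 ± 0.07, adjusted p = 0.017) and CT26.2 (Pdia4, a disulfide isomerase, 0.22 ± 0.055, adjusted p = 0.0036). Manf shares 166 exon bases with an antisense transcript and 146 with Dcaf1, so its values are less certain. The same holds for Hsp90b1, which shares 415 exon bases with a pseudogene on the opposite strand and 133 with a miRNA gene on the same strand. Atf5 shares 82 bases each with Il4i1 and Nup62 on the opposite strand. Apart from Cebpb above, the overlaps of other members were smaller. Hspa5 rose in 5 lines and Creld2 in 5, and neither fell in any. Both carry the ERSE shown above, as do Dnajc3 and Hsp90b1, which each fell in Panc02.3 and B16.1 and rose in KPC.2 (Hsp90b1 in YUMMER1.7 too).

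**Figure D5:**
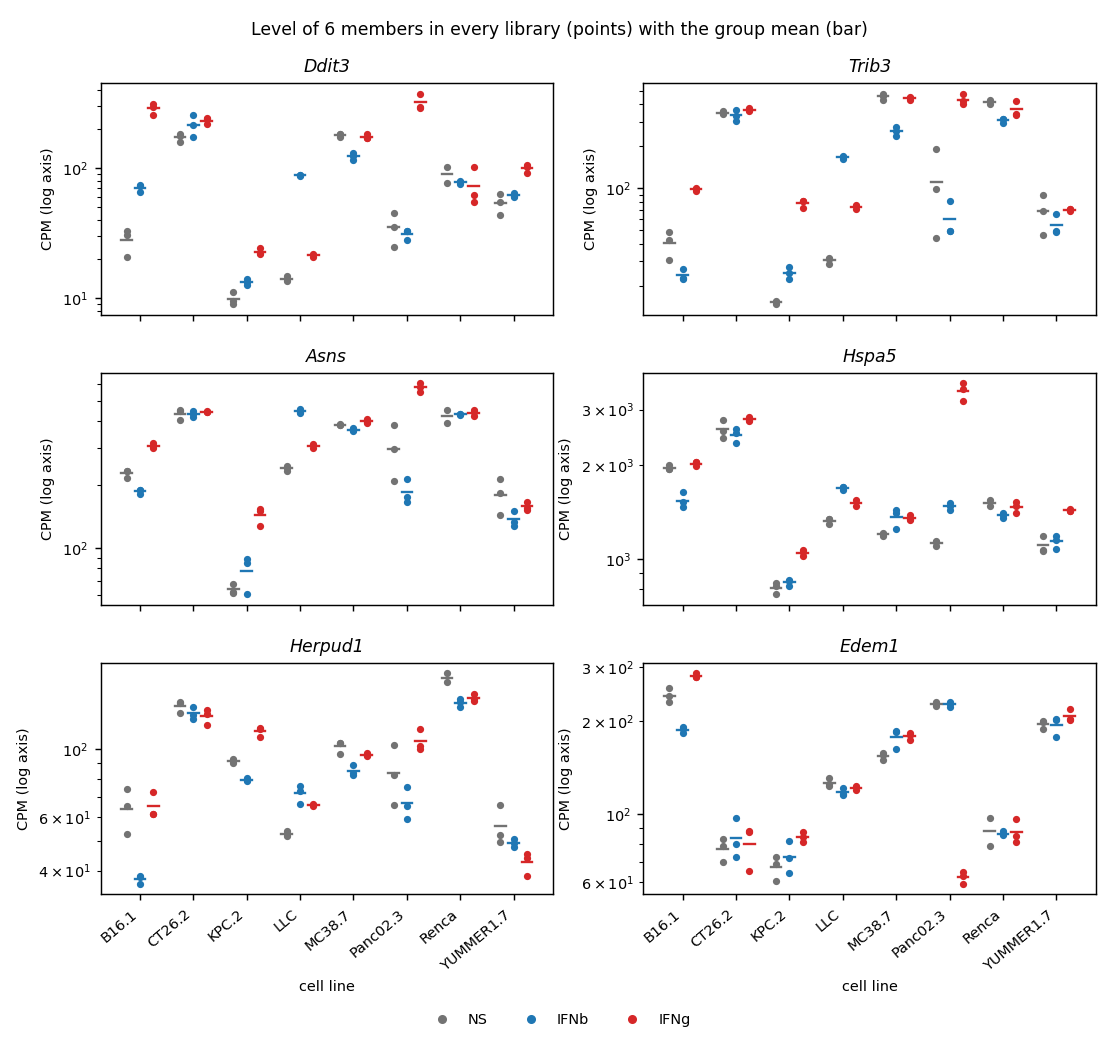
CPM of 6 members in every library on a log axis, with group means as bars, for NS, IFNb and IFNg in each line. IFNg libraries lie above all NS libraries for Ddit3 and Trib3 in B16.1, KPC.2, LLC and Panc02.3, while Edem1 drops in Panc02.3 with IFNg to between 59.3 and 65.1 CPM.

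IFNb gave no common direction. Its comparisons use the same NS libraries as those of IFNg, so the values of both cytokines are set side by side without an overlap or correlation. On the mean of the lines 4 ATF4-arm members rose and 5 fell, where 13% of all genes rose and 17.3% fell, and the arm's median was 0.00. Both shares were near those of all genes, so these counts say little about the arm. Without YUMMER1.7, 5 rose and 3 fell, with a median of 0.03. Ddit3 (0.49 ± 0.07, adjusted p = 1.6e-08) and Slc7a11 (0.49 ± 0.06, adjusted p = 7.7e-09) led the rises, and Ddit4 (-0.22 ± 0.04, adjusted p = 1.1e-05) and Ppp1r15a (-0.18 ± 0.04, adjusted p = 0.00034) the falls. In the ER arm 2 rose and 5 fell, with a median of -0.05, and the counts were 2 and 5 without YUMMER1.7 too. The share of the ER arm that rose was near that of all genes. Xbp1 (-0.23 ± 0.03, adjusted p = 1.1e-10), Herpud1 (-0.21 ± 0.03, adjusted p = 1.7e-06), an ER degradation scaffold, Sel1l (-0.12 ± 0.03, adjusted p = 0.0012) and Manf (-0.12 ± 0.02, adjusted p = 5.6e-05) had the largest called changes. Sel1l lost its call without replicate 2 of every group (adjusted p = 0.073). The F test between lines passed for 22 of 22 and 13 of 13 members, against 48.2% of all genes.

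LLC was the line in which the whole ATF4 arm rose with IFNb. All 22 members rose and 0 fell (17.6% of all genes rose and 21.0% fell), with a median of 1.04, and the ER arm split into 4 risen and 4 fallen members. Atf3 read 4.32, 5.69 and 4.28 CPM unstimulated and 44.8, 43.8 and 46.7 CPM with IFNb (3.23 ± 0.18, adjusted p = 8.6e-23). Ddit3 read 13.4, 14.0 and 14.7 CPM and 89.0, 87.1 and 88.4 CPM (2.65 ± 0.16, adjusted p = 1.6e-21). Trib3 read 31.3, 31.6 and 28.9 CPM and 168, 163 and 171 CPM (2.45 ± 0.20, adjusted p = 1.5e-15). All 3 genes were several times higher in every IFNb library than in any unstimulated one, and all 3 were lower in the LLC libraries with IFNg (Ddit3 21.4 ± 0.85 CPM, SD, n = 2). The smallest rises of the arm in LLC were those of Ddit4 (0.35) and Psat1 (0.38), the phosphoserine aminotransferase. Among the ER genes Hspa5 (0.35), Herpud1 (0.44), Dnajb9 (0.37) and Hyou1 (0.21) rose, and Dnajc3 (-0.58 ± 0.07, adjusted p = 3.4e-10), Xbp1 (-0.41), Manf (-0.38) and Hsp90b1 (-0.25) fell.

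B16.1 fell in both arms with IFNb. There 3 ATF4-arm members rose and 12 fell (14.6% of all genes rose and 14.3% fell), and 0 ER-arm members rose and 12 of 13 fell, with medians of -0.32 and -0.39 against 0.01 over all genes. The share of the ATF4 arm that rose was near that of all genes. The 7 synthesis genes all fell. Sdf2l1 went from 89.9, 99.5 and 95.9 CPM to 57.5, 50.7 and 44.5 CPM (-0.89 ± 0.09, adjusted p = 7.6e-13) and Xbp1 from 112, 112 and 115 CPM to 76.6, 73.7 and 74.9 CPM (-0.59), without overlap. The 3 that rose against the arm were Ddit3, from 20.7, 30.4 and 32.9 CPM to 72.4, 73.7 and 65.0 CPM (1.32 ± 0.16, adjusted p = 2.1e-09), Atf3 (0.70) and Slc7a11 (0.70). Atf4 fell there from 320, 386 and 377 CPM to 206, 200 and 203 CPM (-0.83 ± 0.12, adjusted p = 2e-07).

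MC38.7 and Panc02.3 each had more falls than rises in the ATF4 arm with IFNb. In MC38.7, 3 rose and 8 fell (13.8% and 16.8% of all genes), and in the ER arm 3 rose and 2 fell. The shares that rose in the ATF4 arm and fell in the ER arm were near those of all genes. Slc7a11 went from 32.2, 32.8 and 38.1 CPM to 68.7, 71.1 and 58.8 CPM (0.97 ± 0.15, adjusted p = 3.8e-07), whereas Ppp1r15a fell by 0.96 and Trib3 by 0.83. Dnajb9 rose from 10.7, 9.16 and 9.74 CPM to 17.0, 15.7 and 15.0 CPM (0.70 ± 0.12, adjusted p = 7.5e-06). In both genes that rose the groups did not overlap. The 5 ER-arm calls became 3 without MC38.7 IFNb replicate 2 or without NS replicate 1.

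In Panc02.3, 0 ATF4-arm members rose and 9 fell (3.33% and 2.82% of all genes), and in the ER arm 5 rose and 2 fell. Its unstimulated libraries were unequal in this arm. Replicate 1 was the highest for 20 of 22 members and replicate 2 the lowest for 20, and the median coefficient of variation was 29.0%, against 2.62% in unstimulated MC38.7. Trib3 read 193, 44.1 and 98.4 CPM unstimulated and 49.7, 49.6 and 81.1 CPM with IFNb, so the groups overlapped, with a log2 fold change of -0.93 ± 0.21 (adjusted p = 0.0015). Without NS replicate 1 the 9 called members became 4, and without NS replicate 2 they became 17. Among the fits without 1 library, the Trib3 change nearest to 0 was -0.32 (adjusted p = 0.35). The 7 ER-arm calls became 4 without NS replicate 1 and 4 without IFNb replicate 2. Creld2 read 66.4, 61.3 and 71.2 CPM unstimulated and 108, 89.2 and 102 CPM with IFNb, without overlap (0.57 ± 0.09, adjusted p = 2.2e-06). With IFNg, Trib3 read 475, 420 and 399 CPM in Panc02.3, above all 3 of these unstimulated libraries.

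The remaining lines showed less. In Renca 0 ATF4-arm members rose and 5 fell (7.10% and 6.82% of all genes), and in the ER arm 1 rose and 2 fell. The share of the ER arm that rose in Renca was near that of all genes. Ddit4 fell there from 1309 and 1308 CPM to 611, 742 and 582 CPM (-1.02 ± 0.10, adjusted p = 8.4e-12), and Xbp1 fell by 0.33 ± 0.075 (adjusted p = 0.00081). The 3 ER-arm calls in Renca became 1 when either NS library or any 1 IFNb library was left out. In KPC.2, 4 ATF4-arm members rose and 0 fell (2.52% and 1.93% of all genes), with 0 ER-arm calls. Slc7a11 went from 11.1, 16.6 and 11.7 CPM to 36.2, 29.3 and 28.1 CPM in KPC.2 (1.26 ± 0.25, adjusted p = 0.00033), without overlap, and the other 3 were Mthfd2, Psat1 and Slc3a2. The KPC.2 count was 5 without the shallow IFNb replicate 3, 1 without IFNb replicate 1, and 2 without IFNb replicate 2 or NS replicate 3.

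In the YUMMER1.7 libraries labelled IFNb, which showed no rise of Isg15 or Irf1, 0 rose and 2 fell in the ATF4 arm (0.384% and 0.972% of all genes), namely Pck2 (-0.41 ± 0.09, adjusted p = 0.0032) and Asns (-0.39), and 0 in the ER arm. The 2 became 0 without IFNb replicate 2 or NS replicate 1, 1 without IFNb replicate 3 or NS replicate 2, and 6 without NS replicate 3. Unstimulated YUMMER1.7 replicate 1 was the highest for 19 of 22 ATF4-arm members and replicate 3 the lowest for 19. In CT26.2 0 rose and 1 fell (1.97% and 0.929% of all genes), with 0 ER-arm calls. The 1 was Ddit4 (-0.50 ± 0.13, adjusted p = 0.016), which lost its call without NS replicate 1 or without IFNb replicate 1 or 2.

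Set directly against IFNb on the mean of the lines, IFNg gave higher levels in 16 ATF4-arm members and lower in 1, and higher in 9 ER-arm members and lower in 1 (the same counts without YUMMER1.7), where 18.0% of all genes were higher and 18.7% lower. The medians of the arms were 0.29 and 0.16. Trib3 (0.86 ± 0.08, adjusted p = 2.4e-14), Ppp1r15a (0.78 ± 0.04, adjusted p = 2.1e-24), Cebpb (0.75 ± 0.04, adjusted p = 2.8e-24) and Nupr1 (0.73 ± 0.06, adjusted p = 9e-17) differed most. The member lower with IFNg in the ATF4 arm was Slc7a11 (-0.16 ± 0.06, adjusted p = 0.043), a call lost without any of replicates 1, 2 or 3 of every group and with a replicate block, and in the ER arm it was Edem1 (-0.12 ± 0.03, adjusted p = 0.00052). This difference itself differed between lines for 22 of 22 and 12 of 13 members, against 70.1% of all genes.

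Other genes of the pathway are set here against all genes tested on the mean of the lines, of which 18.3% rose and 23.7% fell with IFNg and 13% rose and 17.3% fell with IFNb. Of 10 genes for stress sensors and eIF2alpha, 4 rose and 3 fell with IFNg, and 3 rose and 2 fell with IFNb. Eif2ak2, which encodes PKR and is interferon-inducible, had the largest rise with both (0.92 ± 0.03 with IFNg and 1.40 ± 0.03 with IFNb), and Mbtps1, the protease that activates ATF6, had the largest fall with both (-0.31 ± 0.02 with IFNg and -0.12 ± 0.02 with IFNb). Eif2ak3, which encodes PERK and is singled out here after its values were seen, had a log2 fold change of -0.27 ± 0.04 with IFNg. Of 17 further ATF4 targets 7 rose and 3 fell with IFNg, from -0.18 for Vegfa to 0.65 for Cth, of cysteine synthesis (adjusted p = 0.044), and 1 rose and 3 fell with IFNb, a share called no larger than among all genes. Vldlr and Fgf21, of these 17, have no usable SE on the mean with either cytokine and could not be called. Of 12 tRNA synthetase genes, many of them ATF4 targets, 10 rose and 1 fell with IFNg, and 0 rose and 1 fell with IFNb (Mars, -0.17), a smaller share called than among all genes. Wars, the tryptophan enzyme that IFNg is known to induce, rose most (1.76 ± 0.04). Of 25 other ER genes 11 rose and 8 fell with IFNg (Uggt1 0.22, Hspa13 -0.29), and 3 rose and 8 fell with IFNb (Ero1l -0.41).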

How the data were processed

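The deposited table holds estimated counts per gene, which the authors made with kallisto after Trimmomatic 0.36. The submitters' processing notes name these tools and the builds mm10 and GRCm38. The kallisto version, how transcripts were summed to genes and whether counting used strand are not given in the sources used here. The values were rounded to whole numbers before testing. Genes were kept by filterByExpr (16147 of 35197) and tested with edgeR 4.0.16 (R 4.3.3, limma 3.58.1) by the quasi-likelihood test in 1 model of 24 groups with TMM scaling. P-values were adjusted by Benjamini-Hochberg over all genes tested, with a threshold of 0.05. Levels of the members are CPM after TMM scaling. CPM of the markers and of the interferon response genes are scaled to the library total alone. Neither corrects for gene length, so they compare libraries within a gene. Errors of levels are SD, and errors of log2 fold changes are SE. Arm medians of single lines leave out members with 3 or fewer counts in both groups. Those on the mean of the lines use all members. IFNb and IFNg comparisons share their NS libraries. Fits without 1 library kept the genes and dispersion trend of the full fit. The scripts were tested on simulated data. Promoters are from RefSeq (GRCm38.p6) and exon overlaps from GENCODE on GRCm38.

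The members and lists were chosen with earlier results of these data known. All members are described. Given in full are, per arm and cytokine, the 4 members with the largest called change on the mean of the lines, and per line the largest of each arm. Alternatives were DESeq2 1.42.0, RLE size factors, library totals, no filter on low counts, each line fitted alone, a replicate block, left-out libraries and, chosen after seeing the data, means without YUMMER1.7. Where leaving out a replicate left 1 library in a group, it was assumed to vary like the other groups.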

Additional observations from a re-analysis of the deposited data

Results flagged for a closer look

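The responses to IFNb differed between the 8 lines, by edgeR's F test of that difference, for 22 ATF4-arm and 13 ER-arm members, and the responses to IFNg likewise for 22 and 13. The F test passed for 48.2% and 69.2% of all genes. With IFNb, 20 ATF4-arm members rose in some lines and fell in others, the exceptions being Sesn2 and Stc2, and so did 7 ER-arm members (Creld2, Edem1, Herpud1, Hspa5, Hyou1, Pdia4 and Sdf2l1), against 11.4% of all genes tested. LLC was among the lines with a rise for all 20. Without the calls of Panc02.3, an alternative chosen after seeing the data, the counts were 18 and 4, against 10.7% of all genes. With IFNg this held for 11 ATF4-arm members (Aldh18a1, Atf3, Chac1, Ddit4, Mthfd2, Nupr1, Pck2, Phgdh, Ppp1r15a, Shmt2 and Slc7a5) and 8 ER-arm members (Dnajc3, Edem1, Herpud1, Hsp90b1, Hyou1, Pdia4, Sdf2l1 and Xbp1), against 26.8% of all genes. Without the calls of Panc02.3 the counts were 11 and 4, against 14.5%.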

How the results depend on the processing

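Of the 305 calls of members on the mean and in single lines, 303 were kept with DESeq2, 301 with RLE size factors, 288 with library totals as the only scaling and 294 without the filter on low counts. Of the 235 in single lines tested alone, 215 were kept. Fewer were kept with fewer libraries: 257, 258 and 234 of 305 without replicate 1, 2 or 3 of every group, and 1215 of 1379 comparisons of a call with a fit without 1 library. On the means, 66 of 70 calls were kept without YUMMER1.7, where ATF4-arm falls with IFNb went from 5 to 3. Of the calls, 1 changed sign in any setting run, Hsp90b1 in Panc02.3 with IFNg without replicate 2 (-0.16 to 0.01, adjusted p = 1). Counts of called members per arm that moved by more than 1.5 times are given here with the reported count first, and the cause was not tested. With DESeq2, ATF4-arm calls with IFNb went from 4 to 8 in KPC.2 and from 2 to 4 in YUMMER1.7, and ER-arm calls from 3 to 7 in Renca with IFNb and from 1 to 2 in CT26.2 with IFNg. With RLE size factors the Renca count with IFNb was 5. With library totals, ATF4-arm falls on the mean with IFNb went from 5 to 3, ATF4-arm calls in YUMMER1.7 with IFNb from 2 to 1, ER-arm calls in MC38.7 with IFNg from 2 to 1, and ER-arm members lower with IFNg than with IFNb from 1 to 2. Without the filter, ATF4-arm calls with IFNb went from 1 to 2 in CT26.2, from 4 to 10 in KPC.2, from 9 to 16 in Panc02.3 and from 2 to 10 in YUMMER1.7. With IFNg they went from 2 to 4 in CT26.2 and from 3 to 5 in Renca, and ER-arm calls in MC38.7 from 2 to 1. With each line fitted alone, ATF4-arm calls with IFNb went from 1 to 0 in CT26.2, from 4 to 11 in KPC.2, from 9 to 2 in Panc02.3 and from 5 to 8 in Renca, and ER-arm calls from 0 to 1 in KPC.2 and from 7 to 3 in Panc02.3. With IFNg, ATF4-arm calls went from 2 to 0 in CT26.2 and from 0 to 5 in MC38.7, and ER-arm calls from 1 to 0 in CT26.2, from 4 to 8 in LLC, from 2 to 4 in MC38.7 and from 1 to 0 in Renca.

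Replicate numbers were shared by groups, and no sign of a pairing by number was seen. Of 68 same-numbered pairs within a line, 2 had a correlation of deviations above 0.1 (median -0.007, against 0.002 for other pairs). With so few libraries per group this correlation cannot exclude a pairing. With the replicate block, 291 of the 305 calls were kept. ER-arm rises on the mean with IFNb went from 2 to 1, ER-arm calls in Renca with IFNb from 3 to 1, ATF4-arm calls in YUMMER1.7 with IFNb from 2 to 1, and ATF4-arm members lower with IFNg than with IFNb from 1 to 0.

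When 1 library, or 1 replicate number of every group, was left out, the counts of the following ranged as given. With IFNb on the mean, ATF4-arm rises (4) ranged from 2 to 5, ATF4-arm falls (5) stayed at 3 and ER-arm rises (2) at 1. ATF4-arm calls with IFNb ranged from 7 to 15 in B16.1 (15), 0 to 1 in CT26.2 (1), 1 to 5 in KPC.2 (4), 2 to 17 in Panc02.3 (9) and 0 to 6 in YUMMER1.7 (2). ER-arm calls with IFNb ranged from 2 to 6 in MC38.7 (5), 2 to 5 in Panc02.3 (7) and 0 to 2 in Renca (3). With IFNg, ER-arm falls on the mean (3) ranged from 1 to 3. ATF4-arm calls with IFNg ranged from 0 to 2 in CT26.2 (2), 4 to 15 in LLC (15), 1 to 5 in Renca (3) and 6 to 13 in YUMMER1.7 (11). ER-arm calls with IFNg ranged from 1 to 2 in CT26.2 (1), 6 to 10 in KPC.2 (10), 1 to 3 in LLC (4), stayed at 1 in MC38.7 (2), and ranged from 0 to 2 in Renca (1) and 3 to 6 in YUMMER1.7 (6). ATF4-arm members lower with IFNg than with IFNb (1) went to 0. Depth limits members near the floor, chiefly Atf3 in CT26.2 and Stc2 in B16.1 and Renca.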
